A study of Mus musculus with 167 samples.

Results

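The microRNAs (miRNAs) miR-221-3p, miR-221-5p and miR-222-3p were followed in lung, heart, brain and blood of mice after whole thorax lung irradiation (WTLI), in which the chest was exposed and other parts of the body were shielded. They were chosen by name, as 3 of the 1915 mature mouse miRNAs listed in every count table, and all 3 were found in all 5 tables. The libraries came from 35 mice and numbered 167. C3H mice (C3Hf/Sed/Kam, all female) were sampled at month 4, with 7 irradiated and 8 sham animals, and C57 mice (C57Bl/6) at month 6, with 5 irradiated animals (4 male and 1 female) and 15 sham animals (8 male and 7 female). No other treatment is given in the labels. Whole homogenates of lung, heart and brain and the erythrocyte (RBC) fraction of blood were sequenced from every animal. The leukocyte (WBC) fraction was sequenced from fewer animals, 6 irradiated and 5 sham of strain C3H and 5 irradiated and 11 sham of strain C57. Strain, time after exposure and age at collection went together in this design and cannot be told apart. For strain and age this also holds in sham mice.

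A miRNA gene is transcribed into a hairpin from which a mature strand of either arm, named 5p or 3p, can be loaded into a silencing complex. The seed, the bases near the 5′ end of the strand, pairs with target messenger RNAs and lowers their output. miR-221 and miR-222 are made from neighboring hairpins of the X chromosome and are known from endothelial cells, where they target the receptor KIT and restrain the angiogenic response to its ligand, and from proliferating cells, where they target the cell cycle inhibitor p27. Both are also known to be present in blood progenitors, where lower levels accompany red cell maturation, and in vascular smooth muscle.

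The mature sequences (RefSeq, GRCm38.p6) are printed here because 2 of the members share their seed and the third does not. Capitals mark the seed, bases 2 to 8 counted from the 5′ end.
mmu-miR-221-3p: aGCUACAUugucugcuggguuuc
mmu-miR-222-3p: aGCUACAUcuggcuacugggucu
mmu-miR-221-5p: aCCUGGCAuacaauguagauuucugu
mmu-miR-1928: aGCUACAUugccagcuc
miR-221-3p (chrX:19146307-19146329, minus strand) and miR-222-3p (chrX:19146901-19146923, minus strand) were identical over their first 8 bases and at 11 of 23 positions in all, so their reads differ at many bases. miR-221-5p (chrX:19146344-19146369, minus strand) is the other arm of the miR-221 hairpin and has a different seed. miR-1928 was the only other of 1679 mature miRNAs in the sequence table with the seed of miR-221-3p, and it had 0 counts in all 167 libraries. The 2 hairpins, Mir221 and Mir222, lay 504 bases apart on the X chromosome, with no other miRNA hairpin within 10 kb. The nearest other annotated gene, Gm14636, lay 10010 bases away.

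The hairpin of miR-221 is shown with both mature arms in capitals, since its arms were measured separately, and the hairpin of miR-222 with its 3p arm in capitals.
Mir221: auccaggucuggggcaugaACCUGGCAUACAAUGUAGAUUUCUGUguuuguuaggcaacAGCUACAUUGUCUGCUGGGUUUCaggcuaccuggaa
Mir222: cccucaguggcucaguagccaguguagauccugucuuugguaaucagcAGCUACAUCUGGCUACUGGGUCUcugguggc

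Levels are given as RPM, the reads of a miRNA scaled to a library total of 10 to the power of 6. Total counts ranged from 1794995 to 7865102 per library, and over all libraries miR-221-3p had 267874 counts, miR-222-3p 83985 and miR-221-5p 10383. The organ labels were matched by their marker miRNAs. The cardiac miR-208a-3p was above every library of other tissues in 35 of 35 heart libraries, and the same held for the neuronal miR-124-3p in 35 of 35 brain libraries and for miR-34c-5p of ciliated epithelium in 35 of 35 lung libraries. A second lung marker, the epithelial miR-200c-3p, was above all other tissues in 34 of 35 lung libraries. Blood was less clearly divided. The myeloid miR-223-3p was above all other tissues in 13 of 27 WBC libraries, the erythroid miR-451a in 0 of 35 RBC libraries, and the summed level of 5 leukocyte miRNAs in C3H sham mice overlapped between the WBC (15266 to 22428 RPM) and RBC fractions (19776 to 36641 RPM). In tissue homogenates, a change in the number of cells of a type and a change in RNA per cell cannot be told apart.

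In sham mice, miR-221-3p was most abundant in brain and least abundant in blood. In C3H sham mice its mean level was 1429 ± 475 RPM (SD, n = 8) in brain, 296 ± 43.3 RPM (n = 8) in lung, 97.1 ± 13.7 RPM (n = 8) in heart, 3.77 ± 2.69 RPM (n = 5) in WBC and 1.91 ± 1.66 RPM (n = 8) in RBC. In C57 sham mice the same order held, with 2297 ± 439 RPM (n = 15) in brain, 238 ± 89.9 RPM (n = 15) in lung, 117 ± 34.3 RPM (n = 15) in heart, 79.3 ± 36.6 RPM (n = 11) in WBC and 4.98 ± 3.69 RPM (n = 15) in RBC. The step from WBC to RBC was 1.97-fold in C3H mice, which were all female, and 15.9-fold in C57 mice with both sexes pooled. In C57 females alone the WBC and RBC means were 39.2 ± 17.4 RPM (n = 4) and 6.35 ± 5.14 RPM (n = 7), and in C57 males 102 ± 19.8 RPM (n = 7) and 3.78 ± 1.01 RPM (n = 8).

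miR-222-3p had a different order, with the 2 blood fractions first and heart last. Its C3H sham means were 203 ± 114 RPM in WBC, 170 ± 29.7 RPM in RBC, 150 ± 51.8 RPM in brain, 120 ± 14.2 RPM in lung and 9.38 ± 2.2 RPM in heart. Its C57 sham means were 274 ± 91.9 RPM, 243 ± 82.6 RPM, 212 ± 50.2 RPM, 77.1 ± 12.3 RPM and 6.78 ± 2.24 RPM in the same order. Heart stood 12.7-fold below lung in C3H mice and 11.4-fold below it in C57 mice, while in RPM the step from WBC to RBC and that from RBC to brain were at most 1.19-fold.

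miR-221-5p was the least abundant member in every tissue of sham mice, with C3H means of 60.8 ± 31.7 RPM in brain, 13.2 ± 1.82 RPM in lung and 2.84 ± 1.34 RPM in heart. Its C57 sham means were 74.7 ± 32.6 RPM in brain, 16.8 ± 4.24 RPM in lung, 4.65 ± 3.01 RPM in WBC and 3.73 ± 1.90 RPM in heart. In C3H WBC and in RBC of both strains its sham means were 0.233 to 0.346 RPM and several libraries had no count. It did not pass the count filter of the irradiation fits in RBC. There it was tested only with a looser filter or in joint fits of several tissues.

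**Figure D1:**
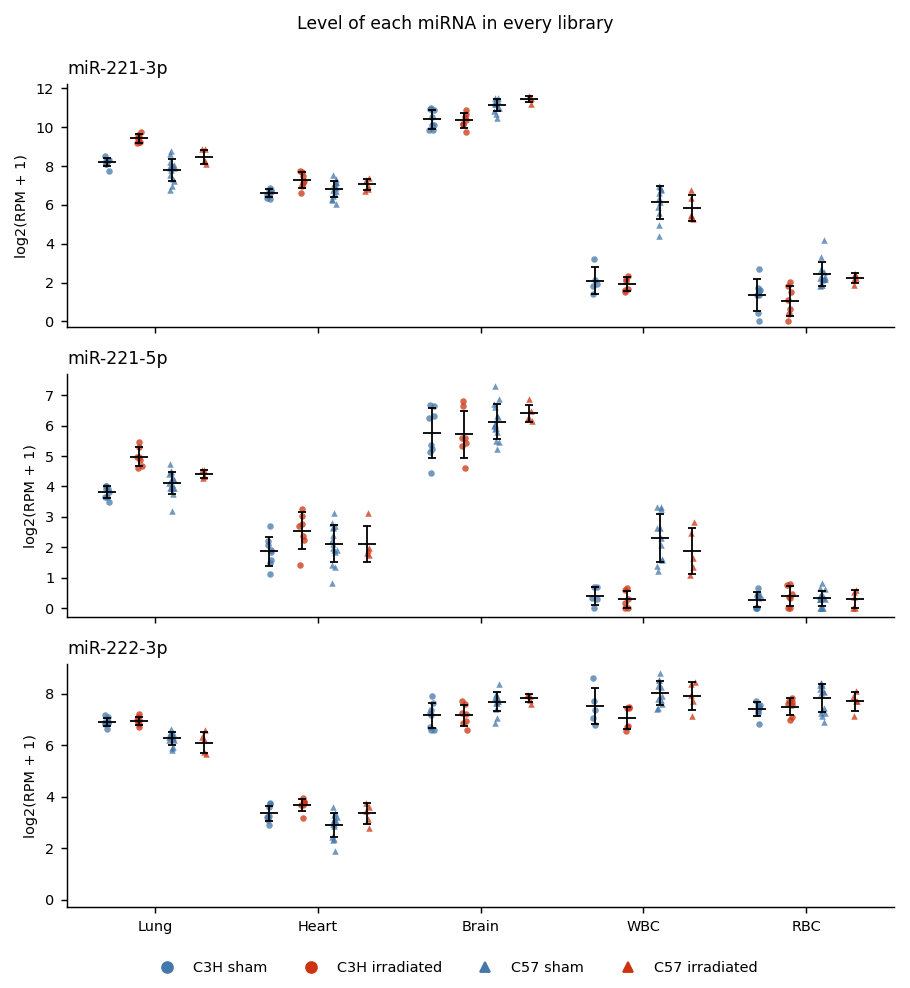
Level of each member in every library, by tissue, strain and irradiation, on the scale log2(RPM + 1), with bars for the group mean ± SD. miR-221-3p falls from brain to RBC, whereas miR-222-3p is lowest in heart and has group means of 138 to 274 RPM in the blood fractions.

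Levels in different tissues were also compared in a joint fit of all sham libraries (limma after voom, quantile normalized), between neighbors in the order of RPM. Scaling mattered here. In C3H mice miR-221-3p was higher in brain than in lung by 0.86 on the log2 scale (adjusted p = 0.00363), higher in lung than in heart by 0.80 (adjusted p = 0.0145) and higher in heart than in WBC by 3.23, while WBC and RBC differed by 1.10 (adjusted p = 0.0578), a step that passed with TMM scaling (1.42, adjusted p = 0.0139), library size alone (1.27, adjusted p = 0.0427) and edgeR (1.20, adjusted p = 0.0188). The C3H step from lung to heart did not pass with a looser filter on low counts (0.80, adjusted p = 0.0519). In C57 mice lung and heart differed by 0.18 (adjusted p = 0.478), and the other 3 steps of miR-221-3p passed the test (2.08, 0.67 and 2.12). Lung and heart of C57 mice did differ with TMM scaling (0.51, adjusted p = 0.0222), edgeR (0.52, adjusted p = 0.0218) and library size alone (0.99, adjusted p = 2.94e-05). For miR-222-3p the step from lung to heart was 3.29 in C3H mice and 2.98 in C57 mice. WBC and RBC differed by 0.14 in C3H mice (adjusted p = 0.640) and by -0.98 in C57 mice, where the level in RBC was the higher, although with library size alone it was 0.19 (adjusted p = 0.431). miR-222-3p was lower in brain than in lung after quantile normalization in both strains (-1.80 and -0.50), but higher in RPM, so no order of these 2 organs is given for it. Between tissues most miRNAs differed. Of 524 miRNAs tested, the share that passed an adjusted p of 0.05 was 83% between brain and lung, 53.2% between lung and heart, 79.2% between heart and WBC and 14.5% between WBC and RBC in C3H mice, and 89.5%, 58.8%, 87.2% and 66.4% in C57 mice.

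The balance of the 2 seed-sharing miRNAs was reversed between organs and blood. A ratio of counts within a library does not depend on how libraries are scaled, although it is a ratio of reads and not of molecules, since the capture of each sequence was not measured. miR-221-3p exceeded miR-222-3p in 35 of 35 lung, 35 of 35 heart and 35 of 35 brain libraries, and in 0 of 27 WBC and 0 of 35 RBC libraries. In sham mice the geometric mean ratio of miR-221-3p to miR-222-3p was 2.46 in C3H and 2.91 in C57 lung, 10.3 and 17.1 in heart, and 9.55 and 10.9 in brain. In WBC miR-222-3p was the higher by 54.8-fold in C3H and 3.76-fold in C57 mice, and in RBC by 121-fold and 51.6-fold. Over all 27 WBC libraries its excess ranged from 1.85-fold to 226-fold.

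**Figure D2:**
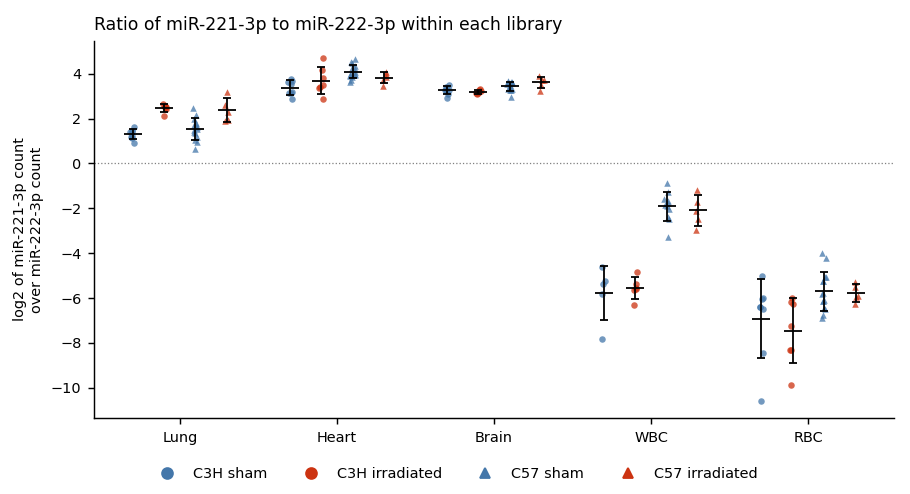
Log2 ratio of miR-221-3p to miR-222-3p counts in each library, by tissue and group, with bars for the mean ± SD and a dotted line at equal counts. Organs lie above the line and both blood fractions below it, and in lung the irradiated groups lie above the sham groups (log2 2.47 against 1.30 in C3H, 2.38 against 1.54 in C57).

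In C3H lung, both arms of miR-221 rose after irradiation. miR-221-3p lay between 216 and 367 RPM in the 8 sham lungs (median 304) and between 578 and 865 RPM in the 7 irradiated lungs (median 682). Every irradiated lung was above every sham lung. The means were 296 ± 43.3 and 691 ± 107 RPM, a 2.34-fold difference, and the normalized log2 difference was 0.98 (SE 0.16, adjusted p = 1.85e-05). miR-221-5p lay between 10.3 and 15.3 RPM in sham lungs (median 13.6) and between 23.5 and 43.0 RPM in irradiated lungs (median 30.2), again with no overlap. Its means differed 2.36-fold (13.2 ± 1.82 and 31.1 ± 7.09 RPM), and its normalized log2 difference was 0.75 (SE 0.18, adjusted p = 0.00132).

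miR-222-3p did not pass the test in C3H lung. It lay between 97.1 and 143 RPM in sham lungs (median 118) and between 105 and 146 RPM in irradiated lungs (median 125), and the groups overlapped almost throughout. The means were 120 ± 14.2 and 124 ± 13.7 RPM, and the normalized log2 difference was -0.29 (SE 0.12, adjusted p = 0.0566). It passed with sex as a covariate (-0.29, adjusted p = 0.0463) and without irradiated replicate 1 (-0.33, adjusted p = 0.0403). In all 2 of 3 members passed an adjusted p of 0.05, against 33.4% of the 350 miRNAs tested in C3H lung, and 0 of 3 also reached the fold minimum of the study, 1.17 on the log2 scale, against 9.71%. With scaling by library size alone both miR-221 arms reached it (1.23 and 1.21 on the log2 scale) and miR-222-3p was at 0.05. That scaling moved the median of all miRNAs from -0.08 to 0.27.

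The miR-221-3p difference in C3H lung was present within each of the letters, A and B, that divide the libraries in the labels with no stated meaning (2.11-fold in A and 2.52-fold in B). miR-221-5p was 3.02-fold higher in A and 1.89-fold higher in B in RPM, and in letter B alone its normalized log2 difference was 0.25 (adjusted p = 0.462). In a fit of all tissues with the animal as a block, miR-221-3p had a log2 difference of 1.02 (adjusted p = 0.00587) and miR-221-5p one of 0.74 (adjusted p = 0.289).

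In C57 lung, miR-221-3p also rose, and the groups overlapped. The 15 sham lungs lay between 107 and 434 RPM (median 236), and the 5 irradiated lungs had 303, 464, 306, 276 and 470 RPM. All 5 were above the sham median and 2 of 5 were above every sham lung. The means were 238 ± 89.9 and 364 ± 95.1 RPM, a 1.53-fold difference, and the normalized log2 difference was 0.50 (SE 0.16, adjusted p = 0.0327). The call was not stable: miR-221-3p no longer passed without irradiated replicate 2 (adjusted p = 0.0889) or replicate 5 (adjusted p = 0.123), among males alone (adjusted p = 0.223) and in the fit blocked by animal (adjusted p = 0.338). In the blocked fit the log2 difference itself was not smaller. Within the letters the means differed 1.71-fold (A) and 1.39-fold (B).

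The other members did not pass in C57 lung. miR-221-5p had 18.2 to 22.2 RPM in irradiated and 8.18 to 25.4 RPM in sham lungs, with a log2 difference of 0.09 (adjusted p = 0.762). miR-222-3p had 49.4 to 94.9 RPM in irradiated and 54.8 to 98.8 RPM in sham lungs, with a log2 difference of -0.20 (adjusted p = 0.240). In all 1 of 3 members passed the adjusted p, where 16.6% of all miRNAs tested did, and 0 of 3 reached the fold minimum, where 6% did.

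**Figure D3:**
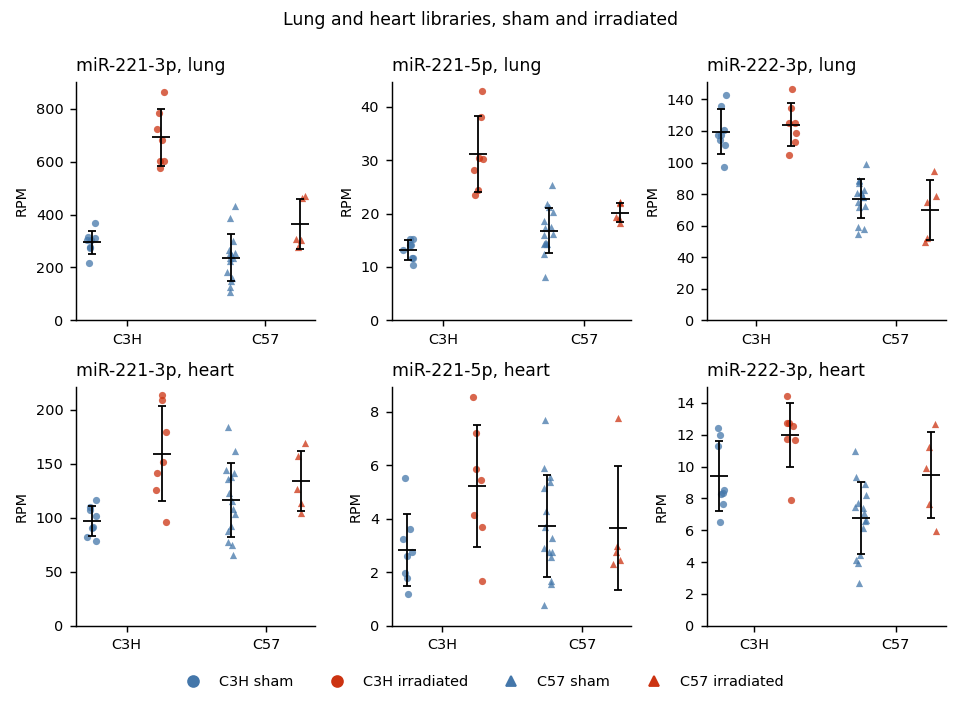
RPM of each member in every lung (top) and heart (bottom) library, by strain and irradiation, with bars for the mean ± SD. In C3H lung the irradiated and sham libraries separate for miR-221-3p (578 to 865 against 216 to 367 RPM) and miR-221-5p but not for miR-222-3p.

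The ratio of miR-221-3p to miR-222-3p rose in irradiated lungs of both strains. In C3H lung its geometric mean was 2.46 in sham and 5.54 in irradiated animals. The log2 ratio was 1.30 ± 0.23 (SD, n = 8) in sham and 2.47 ± 0.18 (n = 7) in irradiated lungs, and each irradiated lung was above each sham lung (difference 1.17, SE 0.10, exact two-sided permutation p = 0.000311, adjusted p = 0.00497 over 16 tests). In C57 lung it was 1.54 ± 0.48 (n = 15) and 2.38 ± 0.53 (n = 5), with 5 of 5 irradiated lungs above the sham median and 2 of 5 above every sham lung (difference 0.84, SE 0.27, exact permutation p = 0.00542, adjusted p = 0.0433). The C57 ratio did not pass without irradiated replicate 1, 2 or 5, where the adjusted p was 0.161, 0.0949 and 0.116, and among males alone (difference 0.70, exact permutation adjusted p = 0.323).

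No other ratio test passed. The difference in the same log2 ratio was 0.32 in C3H heart (exact permutation adjusted p = 0.583), -0.28 in C57 heart (adjusted p = 0.313), -0.06 and 0.17 in C3H and C57 brain, 0.22 and -0.17 in WBC, and -0.53 and -0.09 in RBC. The ratio of the 2 arms of miR-221 differed by 0.01 in C3H lung, where the log2 ratio of miR-221-3p to miR-221-5p was 4.47 ± 0.25 in sham and 4.48 ± 0.43 in irradiated lungs (exact permutation adjusted p = 0.963). In C57 lung the arm ratio differed by 0.37 (exact permutation adjusted p = 0.313).

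Markers of several cell types moved with irradiation in the same lungs. In C3H lung all 4 cardiac muscle miRNAs fell, and their summed level was 2569 to 5226 RPM in irradiated against 4759 to 7515 RPM in sham lungs. The endothelial miR-126a-5p fell by 0.73 on the log2 scale while miR-126a-3p did not pass, and the sum of the 2 ranged from 297017 to 390147 RPM against 380361 to 444378 RPM. Of 5 epithelial miRNAs, miR-200b-3p fell by 0.55, and of 5 smooth muscle and fibroblast miRNAs, miR-199a-3p rose by 0.61. The 5 leukocyte and 4 erythrocyte miRNAs did not pass. In C57 lung miR-499-5p of cardiac muscle and miR-145a-5p of smooth muscle fell, and the neuronal miR-9-5p rose. The leukocyte sum there was 5564 to 6829 RPM in irradiated lungs (median 6309) and 2393 to 9748 RPM in sham lungs (median 3741), and 0 of 5 leukocyte miRNAs passed. The part of these markers in the levels of miR-221 was not tested.

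In heart, miR-221-3p rose in C3H mice. The 8 sham hearts lay between 78.0 and 116 RPM (median 96.4), and the 7 irradiated hearts had 95.7, 151, 209, 126, 141, 214 and 180 RPM. In 6 of 7 irradiated hearts the level was above every sham heart, and in the other it was near the sham median. The means were 97.1 ± 13.7 and 160 ± 43.7 RPM, a 1.64-fold difference, and the normalized log2 difference was 0.68 (SE 0.19, adjusted p = 0.0117). In all 1 of 3 members passed, against 16.7% of the 312 miRNAs tested, and 0 of 3 reached the fold minimum, against 6.73%. The means differed 1.56-fold within letter A and 1.71-fold within letter B, where the adjusted p was 0.0519 and 0.274. The fit blocked by animal gave an adjusted p of 0.0676, with a log2 difference that was not smaller.

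Irradiated C3H heart replicate 3 stood apart, with a summed cardiac miRNA level of 50690 RPM against 152407 to 246805 RPM in the other 6. Its miR-221-3p level was 209 RPM. Without it the log2 difference of miR-221-3p was 0.60 (adjusted p = 0.0410). In the C3H hearts the cardiac miR-499-5p, the erythrocyte miR-451a and miR-144-5p, the leukocyte miR-150-5p and the smooth muscle miR-145a-5p also fell, the last 2 by 1.63 and 0.89. The leukocyte sum ranged widely in sham hearts, from 1065 to 10253 RPM (median 1618), and was 833 to 2656 RPM in irradiated hearts (median 1133). The part of these markers was not tested.

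The other members did not pass in C3H heart. miR-221-5p lay between 1.19 and 5.52 RPM in sham and between 1.68 and 8.55 RPM in irradiated hearts (log2 difference 1.11, SE 0.47, adjusted p = 0.0974). With sex as a covariate it was 1.12 (adjusted p = 0.0482). Without irradiated replicate 1, the lowest of that group, the difference was 1.40 (adjusted p = 0.0150). miR-222-3p lay between 6.55 and 12.4 RPM in sham and between 7.90 and 14.4 RPM in irradiated hearts (log2 difference 0.44, adjusted p = 0.154).

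In C57 heart 0 of 3 members passed, against 3.53% of the miRNAs tested (0.962% with the fold minimum). miR-221-3p had a mean of 117 ± 34.3 RPM in sham and 134 ± 27.9 RPM in irradiated hearts, where the 5 libraries lay between 105 and 169 RPM, all within the sham range of 65.6 to 184 RPM. Its log2 difference was 0.23 (adjusted p = 0.629). The differences of miR-221-5p (-0.23) and miR-222-3p (0.35) also stayed within the spread (adjusted p = 0.839 and 0.512).

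The difference of the irradiation effects between strains passed the test for no member. In lung the C3H effect exceeded the C57 effect by 0.48 for miR-221-3p (adjusted p = 0.354) and by 0.66 for miR-221-5p (adjusted p = 0.307), and in heart by 0.45 (adjusted p = 0.361) and 1.35 (adjusted p = 0.292). Of all miRNAs 0.286% passed this test in lung and 0% in heart (limma), where 51 had an unadjusted p under 0.05, 0 passed with edgeR and 4 with DESeq2. The lung effect of miR-221-3p exceeded the heart effect by 0.23 in each strain (adjusted p = 0.676 in C3H and 0.737 in C57). For miR-222-3p the lung effect was below the heart effect by 0.71 in C3H mice (adjusted p = 0.0600) and by 0.57 in C57 mice (adjusted p = 0.266). Here 6.68% of miRNAs passed in C3H and 5.61% in C57 mice. Whether miR-222-3p passed depended on the fit. In C3H mice it passed with TMM scaling (-0.89, adjusted p = 0.00461), edgeR (-0.85, adjusted p = 0.00860) and DESeq2 (-0.74, adjusted p = 0.00316), while with library size alone it was -0.29 (adjusted p = 0.451). It also passed in the limma fit without irradiated replicate 1 (-0.79, adjusted p = 0.0376). In C57 mice it passed with TMM scaling (-0.76, adjusted p = 0.0448) and DESeq2 (-0.65, adjusted p = 0.0374), and did not with edgeR (-0.68, adjusted p = 0.0950) or library size alone (-0.66, adjusted p = 0.162).

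In brain, outside the exposed chest, no member passed. In C3H mice miR-221-3p lay between 913 and 2068 RPM in sham (median 1295) and between 849 and 1879 RPM in irradiated mice (median 1328), with 1 irradiated brain below every sham brain and 3 sham brains above every irradiated one, and a log2 difference of -0.01 (SE 0.17, adjusted p = 0.997). In C57 brain the sham range was 1406 to 2955 RPM (median 2441) and the 5 irradiated brains lay between 2368 and 3153 RPM, in the upper part of that range and beyond (log2 difference 0.29, SE 0.16, adjusted p = 0.475). The log2 differences of miR-221-5p and miR-222-3p were 0.05 and 0.06 in C3H and 0.34 and 0.12 in C57 brain. In brain 0% of the 433 miRNAs tested passed limma with Benjamini-Hochberg adjustment in either strain, and at an unadjusted p under 0.05 there were 9 in C3H and 53 in C57 mice. With edgeR 0 and 3 miRNAs passed in C3H and C57 brain, and with DESeq2 0 and 9.

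**Figure D4:**
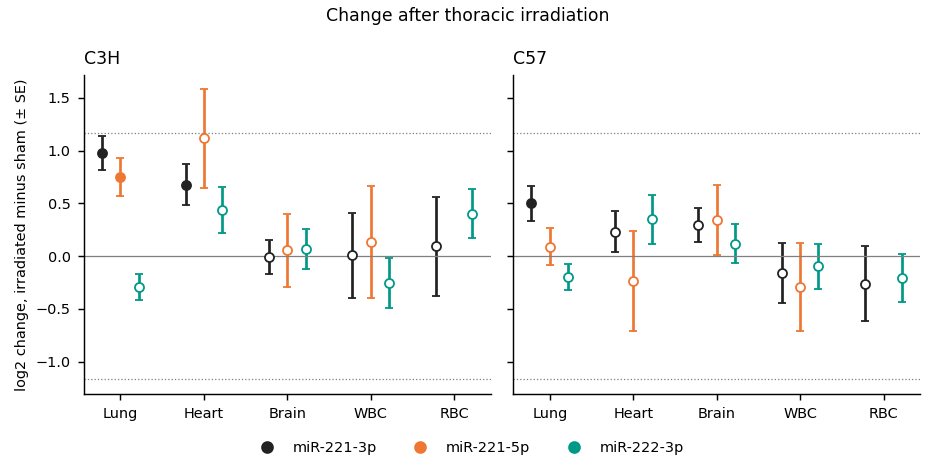
Irradiated minus sham log2 difference of each member by tissue and strain, with bars for the standard error. Filled points passed an adjusted p of 0.05 and dotted lines mark the fold minimum (1.17 on the log2 scale). Filled points are miR-221-3p in C3H lung (0.98), C57 lung (0.50) and C3H heart (0.68) and miR-221-5p in C3H lung (0.75).

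In the blood fractions 0% of the 291 miRNAs tested in WBC and of the 229 tested in RBC passed limma with Benjamini-Hochberg adjustment in either strain, and neither did any member tested. In C3H RBC 12 miRNAs passed with edgeR and 22 with DESeq2, in C57 RBC 1 with each and in WBC 0 with each, with no member among them. At an unadjusted p under 0.05 there were 20 and 12 miRNAs in C3H and C57 WBC and 43 and 14 in RBC. In WBC miR-222-3p lay between 111 and 394 RPM in the 5 C3H sham and between 91.9 and 178 RPM in the 6 C3H irradiated libraries (log2 difference -0.26, adjusted p = 0.813). In C57 WBC miR-221-3p lay between 19.8 and 126 RPM in sham mice (median 81.9) and was 43.2, 108, 82.1, 42.0 and 37.6 RPM in irradiated mice, all within the sham range of both sexes pooled (log2 difference -0.16, adjusted p = 0.953). Sham males alone lay between 71.3 and 126 RPM and sham females between 19.8 and 59.3 RPM, and most of the irradiated mice were male. In RBC miR-222-3p had log2 differences of 0.40 in C3H (adjusted p = 0.332) and -0.21 in C57 mice (adjusted p = 0.992). In C57 RBC it was -0.45 with sex as a covariate (adjusted p = 0.295) and -0.40 among males alone (adjusted p = 0.273).

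In both blood fractions miR-221-3p differed between strains, while miR-222-3p did not pass the test. Since all C3H mice were female, sham females were compared. The C3H females were sampled at month 4 and the C57 females at month 6, so strain and age cannot be told apart. In WBC miR-221-3p had 8.43, 3.46, 2.54, 2.75 and 1.65 RPM in the 5 C3H and 19.8, 30.6, 46.9 and 59.3 RPM in the 4 C57 females. Each C57 female was above each C3H female. The means were 3.77 ± 2.69 and 39.2 ± 17.4 RPM, a 10.4-fold difference, and the normalized log2 difference (C3H minus C57) was -2.67 (SE 0.38, adjusted p = 4.65e-05). In letter A alone it was -1.77 and did not pass (adjusted p = 0.0546). miR-221-5p had a log2 difference of -1.38 (adjusted p = 0.0407), a call lost in 6 of the 9 fits that left out 1 of these females. miR-222-3p had means of 203 ± 114 and 188 ± 20.4 RPM, with a log2 difference of 0.57 (adjusted p = 0.144), which passed with the letter as a covariate (0.62, adjusted p = 0.0365). Both miR-221 arms were called, against 16.1% of 341 miRNAs, and the leukocyte sums of the females overlapped (15266 to 22428 RPM in C3H and 16287 to 19887 RPM in C57). Of the 5 leukocyte miRNAs, miR-142a-5p and miR-150-5p were higher in C3H females (by 0.66 and 1.97 on the log2 scale), the erythrocyte miR-144-5p was lower (-1.01) and the neuronal miR-9-5p was higher (1.63). The part of these markers was not tested.

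In RBC miR-221-3p was again lower in C3H females, at 1.91 ± 1.66 RPM against 6.35 ± 5.14 RPM in C57 females (ranges 0 to 5.49 and 2.62 to 17.0 RPM, which overlap). C3H replicate 6 had no miR-221-3p count, which allows up to 0.827 RPM. The log2 difference was -1.98 (SE 0.45, adjusted p = 0.00167), where 7.19% of 278 miRNAs were called. The C57 female at 17.0 RPM was replicate 13, which had the highest erythrocyte sum of the C57 sham RBC libraries (106323 RPM) and the highest leukocyte sum (45244 RPM). Without it the log2 difference was -1.79 (adjusted p = 0.00360). In letter A alone it was -0.84 (adjusted p = 0.0666). The leukocyte miR-142a-3p (-0.74) and miR-223-3p (-1.21) and the neuronal miR-128-3p were also lower in C3H females, and the neuronal miR-9-5p was higher (2.44). Their part was not tested. miR-222-3p did not differ beyond the spread (170 ± 29.7 and 168 ± 49.3 RPM, adjusted p = 0.676).

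**Figure D5:**
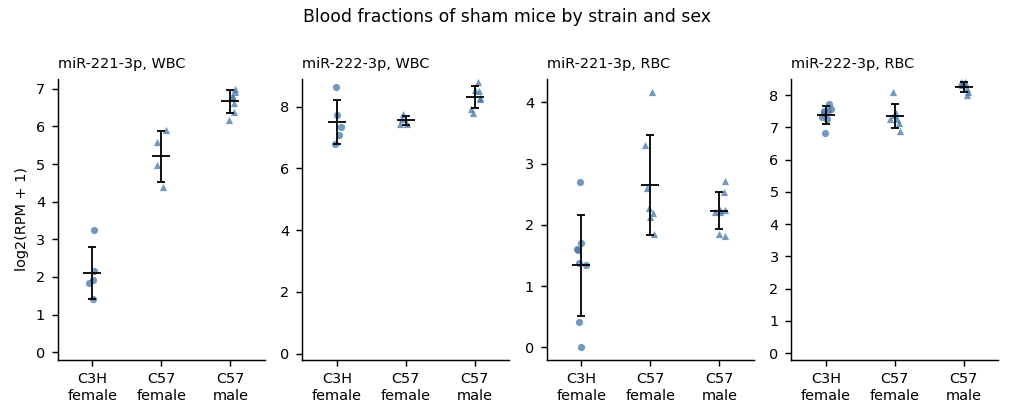
Level of miR-221-3p and miR-222-3p in sham WBC and RBC libraries by strain and sex, on the scale log2(RPM + 1), with bars for the mean ± SD. The WBC libraries of C57 females (19.8 to 59.3 RPM of miR-221-3p) all lie above those of C3H females (1.65 to 8.43 RPM), and RBC libraries of C57 males are mostly above those of C57 females for miR-222-3p.

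Sex was compared within C57 sham mice, since both hairpins lie on the X chromosome. In RBC miR-222-3p was higher in the 8 males, between 258 and 343 RPM (median 322), than in the 7 females, between 119 and 273 RPM (median 154), and 6 of 8 males were above every female. The means were 309 ± 31.8 and 168 ± 49.3 RPM, and the log2 difference (females minus males) was -0.89 (SE 0.15, adjusted p = 6.17e-05). It did not reach the fold minimum, where 6.12% of 278 miRNAs did, and 14.4% passed the adjusted p. miR-221-3p in the same libraries did not pass (log2 difference 0.36, adjusted p = 0.566). Between the same libraries the erythrocyte miR-486a-5p (-0.95) and the leukocyte miR-150-5p (-2.19) were lower in females and the leukocyte miR-223-3p was higher (1.16). The sums overlapped, at 31039 to 106323 RPM in females and 37868 to 64707 RPM in males for erythrocyte miRNAs and at 17656 to 45244 and 21547 to 31600 RPM for leukocyte miRNAs, and the part of these markers was not tested.

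In WBC the direction for miR-221-3p was the same as for miR-222-3p in RBC, with all 7 males (71.3 to 126 RPM) above all 4 females (19.8 to 59.3 RPM), 102 ± 19.8 against 39.2 ± 17.4 RPM. The normalized log2 difference of -0.78 did not pass (adjusted p = 0.112), while it passed with library size alone (-1.47, adjusted p = 0.010), TMM scaling (-0.91, adjusted p = 0.0489) and DESeq2 (-0.95, adjusted p = 0.0241). miR-222-3p separated the same libraries, with all 7 males (220 to 446 RPM) above all 4 females (171 to 214 RPM), 323 ± 78.3 against 188 ± 20.4 RPM, and its normalized log2 difference was -0.07 (adjusted p = 0.864) and -0.75 with library size alone (adjusted p = 0.0999). Of all miRNAs 11.1% passed. The leukocyte sum was also higher in those males (23819 to 33447 RPM) than in those females (16287 to 19887 RPM), as was the neuronal sum (1664 to 5782 against 929 to 1449 RPM). Of the miRNAs tested, 2 of 5 leukocyte miRNAs were lower in females and 1 of 2 neuronal miRNAs was higher. The part of these markers in the difference was not tested.

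In the organs, miR-222-3p in lung differed between strains, in the fit used here and in all 9 alternatives. It lay between 97.1 and 143 RPM in C3H females and between 58.0 and 89.0 RPM in C57 females, with 7 of 7 C57 lungs below every C3H lung. The means were 120 ± 14.2 and 74.2 ± 12.2 RPM, a 1.61-fold difference, and the log2 difference was 0.68 (SE 0.12, adjusted p = 6.34e-05), where 14.4% of 397 miRNAs passed. All 4 cardiac muscle miRNAs were also higher in the C3H lungs (0.55 to 3.06 on the log2 scale), with sums of 4759 to 7515 RPM against 2724 to 5974 RPM in C57 females, and their part was not tested.

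In heart miR-221-5p was lower in C3H than in C57 females (2.84 ± 1.34 and 4.69 ± 1.76 RPM, log2 difference -1.32, adjusted p = 0.0178), where 31.6% of 367 miRNAs passed, and higher in C57 females than in C57 males (4.69 ± 1.76 and 2.89 ± 1.70 RPM, log2 difference 1.15, adjusted p = 0.0278), where 34.9% did. Neither passed with library size alone (-0.79, adjusted p = 0.0691, and 0.78, adjusted p = 0.0693). The strain difference did not pass in letter B (-0.40, adjusted p = 0.492), nor the sex difference in letter A (0.64, adjusted p = 0.543). miR-221-3p was at -0.41 between strains (adjusted p = 0.0912) and passed with TMM scaling (-0.55, adjusted p = 0.0441) and edgeR (-0.56, adjusted p = 0.0380). Between sexes miR-221-3p (0.63, adjusted p = 0.0435) and miR-222-3p (0.99, adjusted p = 0.00983) passed in letter B alone. There 170 of 343 miRNAs passed between sexes, against 2 of 329 in letter A alone. Among the marker miRNAs in these hearts, 2 of 4 erythrocyte, 2 of 4 cardiac and 3 of 5 smooth muscle and fibroblast miRNAs were higher in C3H than in C57 females, and the same numbers were lower in C57 females than in C57 males. Between strains 1 leukocyte and 1 epithelial miRNA were also higher and 1 erythrocyte and 2 leukocyte miRNAs lower, and between sexes 1 leukocyte miRNA was higher and 1 leukocyte and 1 endothelial miRNA lower in females. Their part was not tested.

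In brain no member passed between strains or sexes after quantile normalization (15% and 21.3% of miRNAs did), with miR-221-3p 0.44 lower in C3H females on the log2 scale (adjusted p = 0.0551). Other fits put miR-221-3p past the threshold between strains, with log2 differences of -0.60 with TMM scaling (adjusted p = 0.0295), -0.54 with library size alone (adjusted p = 0.0377), -0.55 with edgeR (adjusted p = 0.0460) or DESeq2 (adjusted p = 0.0299) and -0.42 with the letter as a covariate (adjusted p = 0.0469), and it also passed with a stricter filter on low counts. The letters differed, with 0.04 in letter A (adjusted p = 0.916) and -0.93 in letter B (adjusted p = 4.37e-05), where miR-221-5p (-1.87) and miR-222-3p (-1.15) also passed. Of all miRNAs, 312 of 482 passed this strain test in letter B alone and 29 of 436 in letter A alone. Between sexes miR-221-5p passed in letter B alone (0.83, adjusted p = 0.00835), where 275 of 482 miRNAs passed, against 0 of 436 in letter A alone. Markers moved in these brains too. Between strains the erythrocyte miR-451a (2.01) and miR-144-3p (1.61), the cardiac miR-499-5p (1.16) and the neuronal miR-124-3p (0.73) were higher in C3H females, and the leukocyte miR-155-5p (-1.33) and the epithelial miR-200c-3p (-3.41) were lower. Between sexes all 5 epithelial miRNAs were higher in females (median 4.19), with sums of 352 to 41037 RPM in females and 172 to 2165 RPM in males. The erythrocyte miR-486a-5p was also higher in females (1.33), and 2 of 3 cardiac and 2 of 3 neuronal miRNAs tested were lower. The part of these markers was not tested.

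Members were also compared with all other miRNAs by the Pearson correlation of mean log2(RPM + 1) over the 20 groups, among 401 miRNAs of at least 10 RPM in some group. These values mostly describe the 5 tissues, and groups of a tissue share cell composition. miR-221-3p and miR-221-5p followed each other (r = 0.96), whereas miR-221-3p and miR-222-3p did not (r = -0.14), and miR-222-3p ranked 340 of 400 in closeness to miR-221-3p. The closest to miR-221-3p were let-7e-5p (0.98), miR-181a-1-3p (0.98), miR-361-5p (0.98), miR-3535 (0.98) and miR-106b-3p (0.98). The closest to miR-221-5p were miR-99b-3p (0.99), miR-181a-5p (0.98), miR-672-5p (0.98), miR-106b-3p (0.98) and miR-872-5p (0.97). miR-222-3p was closest to miR-652-3p (0.98), followed at a distance by miR-744-5p (0.90), miR-1198-5p (0.88), miR-101b-3p (0.84) and miR-421-3p (0.84).

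A list of 34 other miRNAs with known roles in blood vessel growth gives the setting of these changes. The list was chosen with earlier results of these data known. It holds miR-34a-5p, miR-10b-5p and miR-21a-5p, and the paper reports miR-34a-5p, miR-10b-5p and miR-21a among the miRNAs altered in irradiated lungs of both strains. The counts that rose are therefore in part set by the choice of the list. In C3H lung 7 of 33 tested rose and 5 fell, with a median log2 difference of -0.13 against -0.08 over all 350 miRNAs, of which 16.3% rose and 17.1% fell. In C57 lung 5 rose and 2 fell (median -0.02 against -0.05), where 9.43% of all miRNAs rose and 7.14% fell. In C3H heart 8 rose and 1 fell, where 10.3% of all rose and 6.41% fell. In C57 heart 4 rose and 0 fell, where 3.21% of all rose and 0.321% fell. In brain and both blood fractions 0 passed. miR-34a-5p, a target of p53 known to limit endothelial growth, rose in C3H lung by 1.57 (adjusted p = 6.41e-10) and in C57 lung by 1.17 (adjusted p = 4.14e-07). miR-10b-5p, which promotes sprouting of vessels, rose by 1.19 in C3H and by 2.11 in C57 lung. miR-21a-5p, known from fibrosis, rose by 1.5 in C3H lung. miR-210-3p, a hypoxia-induced miRNA, fell by 0.45 in C3H lung and rose by 0.80 in C3H heart. miR-27b-3p rose in lung of both strains, by 0.50 in C3H and 0.54 in C57 mice. In C3H lung the 0.98 of miR-221-3p was smaller than the change of miR-34a-5p, miR-21a-5p and miR-10b-5p and larger than that of the other 4 members of the list that rose, miR-132-3p (0.86), miR-322-5p (0.61), miR-27b-3p (0.50) and miR-146a-5p (0.46), an order of estimates that was not tested.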

How the data were processed

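Raw, unnormalized read counts of 1915 mature miRNAs were deposited in 5 tables, 1 per tissue. Per the labels and published methods, the authors made small RNA libraries with a QIAseq kit, sequenced them on a NextSeq instrument and aligned reads to mouse miRNAs (mm10) in the BaseSpace Small RNA pipeline. Whether molecular identifiers were counted, and how reads matching several miRNAs were assigned, is not given in the sources used here. Limits set by a count of 0 (3 counts) cover counting error only.

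RPM was calculated from the total of each library. Filtered counts (filterByExpr of edgeR 4.0.16, count minimum 10, total minimum 15) were tested with limma 3.58.1 after voom with quantile normalization, in R 4.3.3. Each tissue was fitted with 4 groups, or with 6 groups where sex was included, lung and heart with 8 groups, and all sham tissues with 10. Adjusted p-values are Benjamini-Hochberg values over all miRNAs tested in a contrast. A miRNA rose or fell at an adjusted p under 0.05 and was called where its fold change was also at least 2.25 (1.17 on the log2 scale). Ratios were log2((count + 0.5)/(count + 0.5)), tested with exact two-sided permutations of group means (scipy 1.17.1) in tissues where both median counts were at least 10.

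Members and lists were chosen with earlier results of these data known. The 5 miRNAs most correlated with each member were named. Within groups every pair of libraries differed by more than sampling noise (smallest chi-square per degree of freedom 17.8). Within a tissue each library is from a separate animal. The tissues of 1 animal share its number in the labels, and deviations from group means correlated between them with a median r of -0.11 to 0.15. Alternatives were other scalings, edgeR, DESeq2 1.42.0, other filters, letter or sex as a covariate, each letter or C57 males alone, the animal as a block and leaving out single libraries. Simulated counts with known changes were used to check the fits. Plasma libraries of the study were not analysed here.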

Additional observations from a re-analysis of the deposited data

Results flagged for a closer look

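In 63 combinations of group and measurement with 4 to 10 libraries, 7 libraries stood apart from the rest of their group by Dixon's 95% criterion, which chance alone meets in about 1 in 20 groups (5%). For miR-221-3p, C3H sham WBC replicate 1 had 8.43 RPM with the next library at 3.46 RPM, and C3H sham RBC replicate 3 had 5.49 RPM with the next at 2.27 RPM. For miR-222-3p, irradiated C3H heart replicate 3, the heart with the low cardiac miRNA sum, had 7.90 RPM with the next lowest at 11.7 RPM. For miR-221-5p, irradiated C57 heart replicate 5, the only female of that group, had 7.79 RPM with the next at 2.97 RPM. The log2 ratio of miR-221-3p to miR-222-3p was 2.10 in irradiated C3H lung replicate 2, with the next lowest at 2.41, and both values were above all sham C3H lungs. The log2 ratio of the miR-221 arms (3p to 5p) was 5.73 in C3H sham brain replicate 5, with the next at 4.80, and 4.34 in irradiated C57 brain replicate 5, with the next lowest at 5.17. No cause was tested for any of these libraries.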

How the results depend on the processing

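Among irradiation effects 426 of 492 recomputed values kept their direction and their side of the threshold. The sign changed in 50, all of differences that passed neither in the fit used nor in the alternative. This also held for 3 of 74 values of lung against heart, 20 of 356 in sham mice, 13 of 272 between strains and 20 of 151 ratios. In the tissue levels of sham mice 18 of 144 values changed sign with the difference past the threshold in at least 1 of the fits compared. Brain minus lung for miR-221-5p was -0.12 in C3H and -0.07 in C57 mice after quantile normalization, against 1.26, 2.01, 1.44 and 1.96 (C3H) and 1.34, 2.08, 1.39 and 1.78 (C57) with TMM, library size, edgeR and DESeq2. For miR-222-3p it was 0.26 with library size and 0.067 with DESeq2 in C3H mice, and 0.70, 1.44, 0.71 and 1.09 in C57 mice. WBC minus heart for miR-221-5p in C57 mice was -0.018, -0.034 and -0.63 with TMM, edgeR and DESeq2, against 0.81. WBC minus RBC for miR-222-3p in C57 mice was 0.19 with library size. Of 12 steps between neighboring tissues over the 3 members, 5 were called in C3H mice (9 with TMM, 8 with library size, 9 with edgeR) and 4 in C57 mice (10 with no fold minimum, 7 with TMM, library size or edgeR, 8 with DESeq2). By the same rule, in the fit used, 351 of 524 miRNAs were called between brain and lung in C3H mice and 363 in C57 mice. Between lung and heart 195 were called in C3H mice and 185 in C57 mice.

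Without a fold minimum, the members called after irradiation were 2 in C3H lung, 1 in C57 lung and 1 in C3H heart, from 0 each. C3H lung had 2 with library size alone and 1 in letter A. C3H heart had 0 to 1 over the fits leaving out 1 irradiated library, with 1 without replicate 1. Between strains in sham females, called members went from 1 to 0 in heart with library size, edgeR, DESeq2 or letter B and in RBC with letter A, from 0 to 1 in brain with letter B and in lung with no fold minimum, and in WBC from 2 to 0 with letter A, 1 with letter B and 1 to 2 when 1 female was left out. Between sexes they went from 0 to 1 in heart (no fold minimum, letter as covariate, letter B), RBC (no fold minimum, letter B) and WBC (library size, letter A). In letter B alone 161 of 482 miRNAs were called between strains in brain and 78 of 343 between sexes in heart. The ratio tests passed were 1 in each strain and 0 in each letter alone, where the smallest p that the exact permutation test allows before adjustment over 16 tests is 0.0571 (A) and 0.0286 (B) in C3H lung and 0.0444 (A) and 0.0167 (B) in C57 lung, so this says nothing about stability. In C57 mice there were 0 among males alone and 0 to 1 when 1 irradiated mouse was left out. The letters alone and the left-out sham females were chosen after seeing the data. The stricter filter left a called member untested in heart, WBC, RBC and the tissue comparison, so no count is given. The causes were not tested.

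With the animal as a replicate block over all tissues (consensus correlation 0.0175), miR-221-3p passed the adjusted p in C3H lung (1.02, adjusted p = 0.00587), and no longer passed it in C57 lung (0.55, adjusted p = 0.338) and C3H heart (0.81, adjusted p = 0.0676). miR-221-5p no longer passed in C3H lung (0.74, adjusted p = 0.289). The blocked fit shares 1 spread over all tissues.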

Other observations

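miR-222-5p, the other arm of the miR-222 hairpin, was rare, with sham means of 23.4 ± 4.40 RPM in C3H and 22.9 ± 3.06 RPM in C57 brain and 6 RPM or less elsewhere. In C3H lung it was 4.27 ± 1.25 RPM in sham and 6.65 ± 0.873 RPM in irradiated mice, with 6 of 7 irradiated lungs above every sham lung, and its normalized log2 difference did not pass (0.29, adjusted p = 0.381, limma). In C3H heart the difference was 0.94 (adjusted p = 0.0772).

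In C3H sham brain, libraries of the letters A and B differed in level. miR-221-3p was 1839 RPM in letter A and 1019 RPM in letter B (means of 4 libraries each), miR-221-5p was 88.8 and 32.8 RPM, and miR-222-3p was 190 and 110 RPM. In C57 sham brain the letters went the other way, with 2162 RPM of miR-221-3p in A (8 libraries) and 2452 RPM in B (7 libraries), 62.7 and 88.3 RPM of miR-221-5p, and 189 and 239 RPM of miR-222-3p. The meaning of the letters is not given in the sources used here, and these differences were not tested.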
